A study of Mus musculus with 6 samples.

Results

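Axon guidance ligands and receptors were examined in J1 mouse embryonic stem cells, as 48 genes of the netrin, slit, semaphorin, plexin, neuropilin, Eph and ephrin families. They were chosen by gene name, and every probe whose RefSeq accession maps to one of them was taken. This gave 64 of the 55600 probes kept and 48 of the 20645 genes with a symbol. The list was drawn up with results of this same comparison in view, so the changes below describe these genes and carry no test of the family as a whole.

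The study compared cells kept for 24 h with 3 µM SB431542 (3 arrays) with cells kept for 24 h with its solvent DMSO (3 arrays). SB431542 inhibits the type I receptors through which activin, Nodal and TGF-beta signal. Cells of both groups were of the gelatin-adapted J1 line, of strain 129S4/SvJae and derived from the inner cell mass, and all grew in serum replacement medium with 1000 U/mL of the cytokine LIF. J1 is a single line. The labels number the replicates without stating whether they came from separate cultures, so errors and p-values cover only how far these arrays differ, which may be technical variation. Signal was measured on 1-colour Agilent arrays. Each value is a scaled signal in which 100 is the 75th percentile of all probes on that array. Scaled signals are compared between arrays for a probe. Probes are set beside each other only in the marker sums and in choosing the brightest probe of a gene. The changes given are log2, SB431542 minus DMSO, with the standard error of a limma fit across all 25899 features (3 arrays per group). "Rose" and "fell" mark features with a Benjamini-Hochberg adjusted p under 0.05 in that fit, and "called" means either.

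The arrays differed in ways that bear on the values. Slide 1 held 5 arrays, and SB431542 replicate 3 was alone on slide 2 with its own scan. A fit on slide 1 alone is therefore the fit without SB431542 replicate 3. Replicates spread more in SB431542 (median log2 SD 0.12) than in DMSO (0.07). Receptor inhibition was visible in the pathway's feedback genes. Lefty1, well above background on 2 of 3 SB431542 arrays, fell by 9.43 on the log2 scale, Lefty2 fell by 4.85 and Smad7 fell by 4.59. All 9 embryonic stem cell markers were well above background. Of these, Dppa5a, Tdgf1 and Utf1 fell, and Pou5f1, Nanog, Sox2, Zfp42, Klf4 and Esrrb were not called. Sums over a marker list are led by its brightest probes. This one ran from 46499 to 51668 in SB431542 and from 62889 to 65237 in DMSO, of which Dppa5a alone was 25578 to 28758 in SB431542 and 36818 to 39626 in DMSO. Of 11 neural markers, 9 were tested, 0 rose and 1 (Sox1) fell, with a summed signal of 698 to 779 in SB431542 and 674 to 692 in DMSO. The neural sum was mostly Tubb3, which was not called (420.5 to 503 in SB431542 and 389 to 405 in DMSO). Neurog2 and Dcx had no array with signal well above background. Of 8 fibroblast markers 6 were tested, of which 0 rose and 3 fell (summed signal 189 to 209 in SB431542 and 235 to 252 in DMSO), and Lum and Postn had no array with signal well above background. Of 5 endothelial markers 3 were tested, of which 1 rose and 0 fell (48.6 to 53.4 in SB431542 and 41.2 to 44.7 in DMSO), and Cdh5 and Emcn had no array with signal well above background. The 6 primitive endoderm markers (94.1 to 109 in SB431542 and 94.6 to 101 in DMSO) and 4 of 6 mesoderm markers (1247 to 1546 in SB431542 and 1135 to 1246 in DMSO) were tested and not called. The mesoderm sum was mostly Kdr (1124 to 1421 in SB431542 and 1013 to 1116 in DMSO). The mesoderm marker T was not tested, with 0.403, 0.478 and 0.488 in SB431542, not well above background, and 1.66, 2.56 and 2.95 in DMSO, well above it on 2 arrays, and Mixl1 had no array with signal well above background. The part of these marker shifts in the changes below was not tested. In such bulk samples fewer cells of a type and less RNA per cell cannot be told apart.

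Guidance cues are proteins that attract or repel the tips of growing axons, and the same cues direct cell migration, boundary formation and vessel growth outside the nervous system. Netrins act through Dcc, neogenin and the Unc5 receptors, slits through Robo receptors, and semaphorins through plexins, with neuropilins as co-receptors for most secreted class members. Ephrins are bound to the membrane of one cell and their Eph receptors, which are tyrosine kinases, to that of its neighbour, so that signalling needs contact and can run in both directions.

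Of the 48 genes, 43 were tested, 7 rose and 10 fell. The share called was 12.6% over all features, 5.19% higher and 7.38% lower, and since the list was chosen on this comparison nothing is read from the difference. The 7 that rose were the ligand genes Ntn1, Slit2 and Sema4b and the receptor genes Neo1, Plxna4, Nrp2 and Ephb1. Of these, Plxna4 and Ephb1 were well above background on SB431542 arrays only. The 10 that fell were the ligand genes Slit3, Sema3e, Sema3f, Sema6a, Efna1, Efnb1 and Efnb2 and the receptor genes Unc5a, Unc5b and Epha2. Among ligands 10 of 21 tested were called, and among receptors 7 of 22. A change of at least 1.5-fold was seen in 11 of the called genes, against 4.62% of all features. The median log2 change of the 43 was -0.03, beside 0.02 over all features, so the falls and rises left the middle of the list near 0. The median size of change, sign aside, was 0.25 for the list and 0.14 over all features. The 2 groups of arrays did not overlap for 29 of the 43 genes, 13 higher and 16 lower, against 36.0% of all features, 18.6% higher and 17.3% lower. The count that rose dropped to 3 when DMSO replicate 1 or 3 was left out and to 4 when DMSO replicate 2 was. On slide 1 alone, 7 rose and 9 fell, but these were not all the same genes. Slit2, Unc5a and Sema6a lost their calls there, so both counts include genes uncalled in the main fit.

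**Figure D1:**
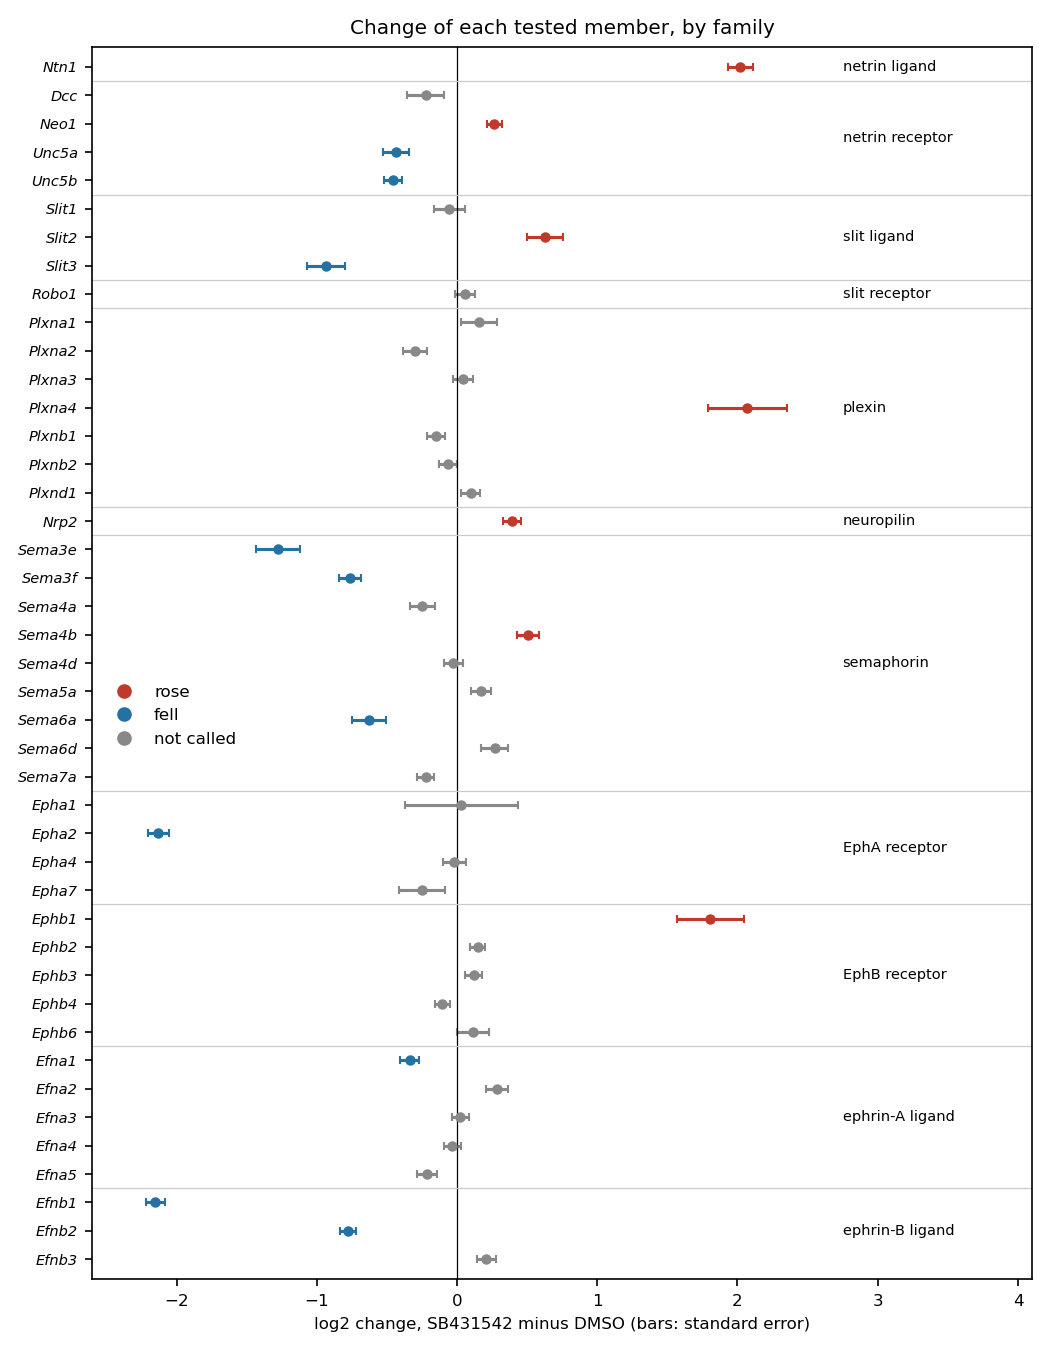
Log2 change (SB431542 minus DMSO, horizontal axis) of each of the 43 tested genes, ordered by family, with bars for the standard error (3 arrays per group). Red points rose, blue points fell and grey points were not called. Efnb1 and Epha2 lie near -2, Ntn1, Plxna4 and Ephb1 near 2, and the uncalled genes between -0.30 and 0.29.

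**Figure D2:**
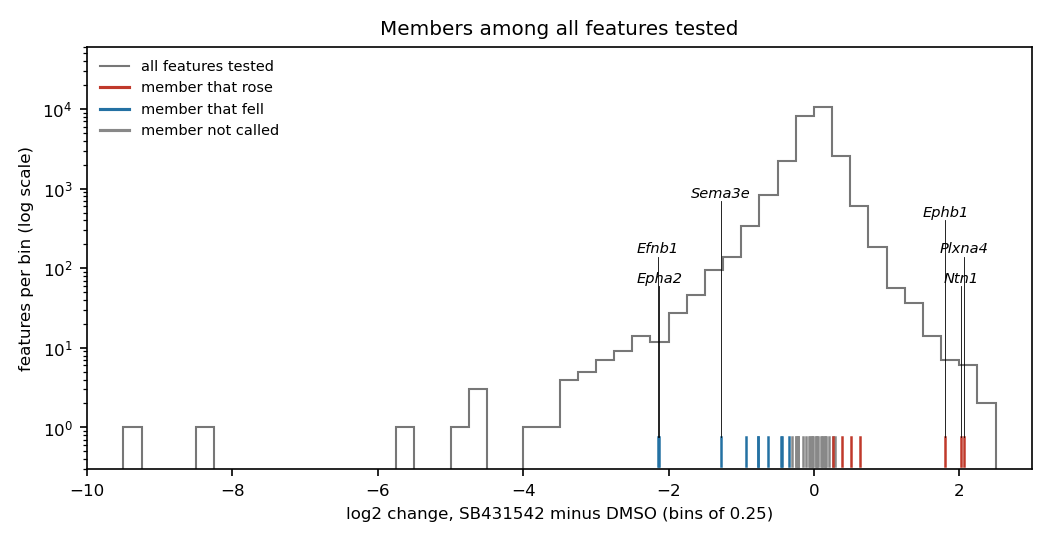
Number of features (vertical axis, log scale) in bins of 0.25 of the log2 change, SB431542 minus DMSO, for all 25899 features (grey outline), with the 43 genes as ticks along the bottom (red rose, blue fell, grey not called). The named genes lie in the sparse tails on both sides, and the uncalled genes under the central peak.

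Among the netrin genes the ligand rose and its receptors moved by less and in both directions. Ntn1 (NM_008744), which encodes the secreted attractant and repellent netrin-1, had scaled signals of 143, 136 and 165 in SB431542 and 37.9, 34.3 and 37.1 in DMSO. Every SB431542 array lay well above every DMSO array. The log2 change was 2.02 ± 0.09, a 4.06-fold difference and the 9th highest change of all features. A second Ntn1 probe, well above background on 3 SB431542 and 2 DMSO arrays, had 9.40, 10.71 and 8.08 in SB431542 and 1.63, 2.67 and 2.32 in DMSO, also apart. Ntn4, a laminin-binding netrin, had no array with signal well above background.

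Neo1, the neogenin receptor shared by netrins and repulsive guidance molecules, had scaled signals of 256, 252 and 239.8 in SB431542 and 214, 201 and 207 in DMSO, and rose by 0.27 ± 0.05 on the log2 scale. The repellent netrin receptors went the other way. Unc5b had scaled signals of 222, 248 and 248 in SB431542 and 326, 334 and 324 in DMSO, and its log2 change was -0.46 ± 0.06. Unc5a had 34.1, 32.7 and 31.3 in SB431542 and 49.9, 42.4 and 40.6 in DMSO, and its log2 change was -0.43 ± 0.09. In all 3 genes the groups did not overlap. The call of Unc5b was kept whichever array was left out. That of Unc5a was lost without any 1 of the 6 arrays (limma adjusted p = 0.0578 to 0.0912), with a limma adjusted p of 0.0775 on slide 1 alone. That of Neo1 was lost without each of the arrays but SB431542 replicate 3 (limma adjusted p = 0.0799 to 0.124). Dcc, the attractant netrin receptor, was not called at -0.22 ± 0.13. Its values rest on 1 of 3 probes, since the other two had no array with signal well above background. Unc5c had no array with signal well above background.

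The slit genes, which encode secreted repellents, moved apart. Slit3 (NM_011412) had scaled signals of 3.82, 5.24 and 4.23 in SB431542 and 7.998, 7.83 and 9.41 in DMSO. All SB431542 arrays lay below all DMSO arrays, and the log2 change was -0.93 ± 0.14, with DMSO 1.91-fold higher. Slit2 (NM_178804) had 8.38, 10.1 and 10.5 in SB431542 and 6.52, 6.85 and 5.34 in DMSO. Its groups did not overlap either, in the opposite direction, and the log2 change was 0.63 ± 0.13. The call of Slit2 was lost without DMSO replicates 1, 2 or 3 and without SB431542 replicates 2 or 3 (limma adjusted p = 0.0638 to 0.0891), with a limma adjusted p of 0.0758 on slide 1 alone. Slit1 overlapped between the groups and was not called at -0.05 ± 0.11. Both called slits are dim, and with normexp background correction and an offset of 50 their log2 changes were 0.30 (Slit2) and -0.28 (Slit3), with the calls kept. Of the slit receptors, Robo1 was not called at 0.06 ± 0.07 and Robo2 had no array with signal well above background.

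Among 7 plexin genes, which encode the semaphorin receptors, 1 rose and 0 fell, beside 5.19% and 7.38% of all features. No direction of the family is read from this. Plxna4 (NM_175750) had scaled signals of 2.62, 2.84 and 3.11 in SB431542 and 0.436, 0.954 and 0.75 in DMSO. It was well above background on all 3 SB431542 arrays and on 0 of 3 DMSO arrays, so a floored ratio, 1.69-fold, is given. For that ratio each DMSO array entered at its lowest signal well above background, or at the probe's own signal where that was higher. This floor is the lowest over all probes of the array, so the ratio is not a strict lower bound. The fitted log2 change of Plxna4 was 2.07 ± 0.28, which was 0.24 under normexp with the call kept. The probe passed the filter on dim probes (3 or more arrays with signal well above background) only through its SB431542 arrays. Both fits used that filter, so their calls describe the gene and are no support for a rise. The other Plxna4 probe had no array with signal well above background. The remaining 6 plexins had log2 changes between -0.30 and 0.16, namely Plxna2, Plxna3, Plxnb1, Plxnd1, Plxnb2 (-0.06 ± 0.06), a receptor of class 4 semaphorins, and Plxna1 (0.16 ± 0.13), a partner of neuropilins.

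Nrp2, a neuropilin co-receptor for class 3 semaphorins, rose by 0.39 ± 0.07 on the log2 scale. Its scaled signals were 35.3, 32.8 and 37.0 in SB431542 and 25.8, 26.9 and 27.4 in DMSO, without overlap. A second probe, for another Nrp2 transcript, had 2.755, 2.65 and 3.998 in SB431542 and 2.50, 1.14 and 1.41 in DMSO. It was well above background on 3 SB431542 arrays and 1 DMSO array, so no size of change is given for it. The call was lost without DMSO replicates 1, 2 or 3 or SB431542 replicate 1 (limma adjusted p = 0.0509 to 0.0683), and with the mean of both probes, where the log2 change was 0.67. Under normexp it was 0.26, with the call kept. Nrp1 had no array with signal well above background.

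Of 9 tested semaphorins, the ligands of plexins, 3 fell and 1 rose, beside 7.38% and 5.19% of all features. Since the list was chosen on this comparison, no direction of the family is read from these counts. Sema3e (NM_011348), a secreted semaphorin that binds plexin-D1, had scaled signals of 5.83, 4.99 and 5.61 in SB431542 and 11.2, 12.4 and 16.7 in DMSO. Every SB431542 array lay below every DMSO array, and the log2 change was -1.28 ± 0.16, with DMSO 2.43-fold higher. Under normexp it was -0.58, with the call kept.

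Sema3f (NM_011349), a secreted ligand of neuropilin-2, had scaled signals of 59.98, 63.4 and 52.9 in SB431542 and 98.3, 99.3 and 101 in DMSO. The DMSO arrays lay close together, the groups were apart, and the log2 change was -0.76 ± 0.08. Sema6a (NM_018744), a membrane-bound semaphorin, had 14.1, 16.4 and 12.6 in SB431542 and 23.7, 23.1 and 19.6 in DMSO, with a log2 change of -0.63 ± 0.12. Its groups did not overlap, but the call was lost without DMSO replicates 1 or 2 or SB431542 replicates 1 or 3 (limma adjusted p = 0.0533 to 0.101). Under normexp its change was -0.41, with the call kept. Sema4b, a transmembrane class 4 semaphorin, had 402, 428 and 363 in SB431542 and 283, 289 and 266 in DMSO and rose by 0.51 ± 0.08. Without DMSO replicates 1 or 3 its limma adjusted p was 0.0506 to 0.0558. The other 5 tested, Sema4a, Sema4d, Sema5a, Sema6d and Sema7a, had log2 changes between -0.25 and 0.27. Plxnd1, the receptor of Sema3e, was not called at 0.10 ± 0.07, and a second Plxnd1 probe gave 0.12.

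**Figure D3:**
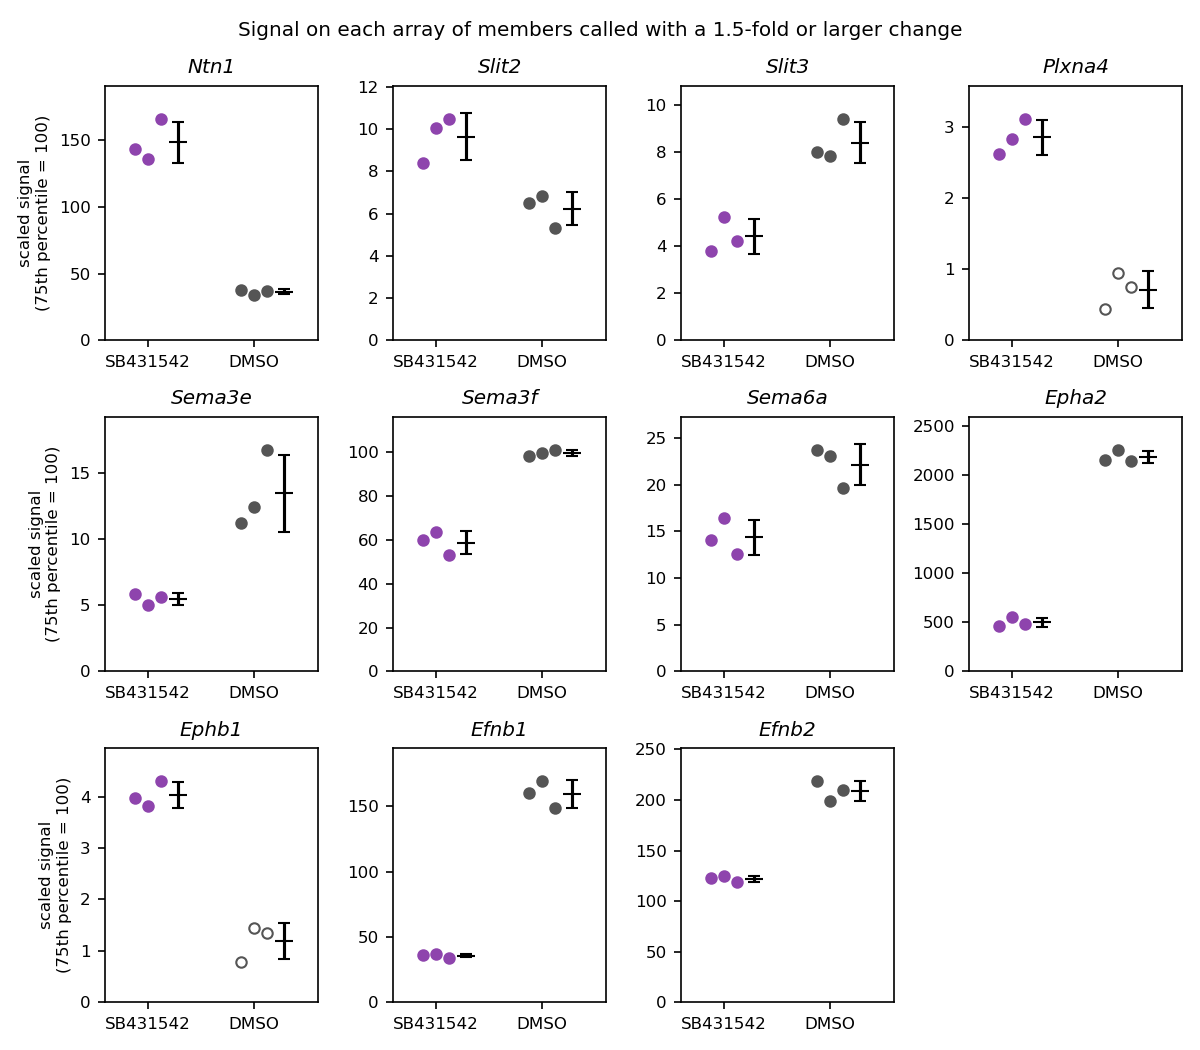
Scaled signal on each array (vertical axes from 0, where 100 is the array's 75th percentile) of the 11 genes called with a change of at least 1.5-fold, SB431542 left and DMSO right, 1 point per array and bars for mean and SD. Open points are groups in which no array was well above background, as in DMSO for Plxna4 and Ephb1. In every panel the 2 groups are apart.

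Of the 9 Eph receptor genes, 1 fell and 1 rose, beside 7.38% and 5.19% of all features, and 7 were not called. Nothing about the family is read from these counts. Epha2 (NM_010139), the receptor kinase that binds ephrin-A ligands, had scaled signals of 468, 551 and 485 in SB431542 and 2155, 2257 and 2149.9 in DMSO. The arrays of each group lay close together and far from the other group, and the log2 change was -2.13 ± 0.08, with DMSO 4.37-fold higher. It was between -2.20 and -2.08 in the 14 other fits. Ephb1 (NM_173447), a receptor of ephrin-B ligands, had 3.98, 3.81 and 4.30 in SB431542 and 0.783, 1.44 and 1.35 in DMSO. It was well above background on 3 SB431542 arrays and on 0 of 3 DMSO arrays, and its floored ratio, found as for Plxna4, was 2.39-fold. Its fitted log2 change of 1.81 ± 0.24 was 0.36 under normexp, with the call kept. Like Plxna4, it passed the filter on dim probes only through its SB431542 arrays, so these calls are no support for a rise.

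The 3 other EphA genes had log2 changes of 0.03 ± 0.40 (Epha1), -0.02 ± 0.08 (Epha4) and -0.25 ± 0.16 (Epha7). Epha1 had the widest spread, with scaled signals of 69.3, 24.0 and 33.1 in SB431542 and 47.4, 35.6 and 30.7 in DMSO. The 4 other EphB genes lay between -0.10 and 0.15, with Ephb3 at 0.12 ± 0.06, Ephb4 at -0.10 ± 0.05, Ephb2 at 0.15 ± 0.06 and Ephb6 at 0.12 ± 0.11. Although uncalled, all but Ephb6 had groups that did not overlap by the brightest probe. That also held for 36.0% of all features, so nothing is read from it. A second Ephb4 probe overlapped between the groups, with a log2 change of -0.03.

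Promoter windows are printed for the genes called with at least a 2-fold change for which the table had an entry. That of Epha4, the EphA gene with the smallest change, is printed too. Epha4 was picked by its value in this comparison, so its window is an example and no control. Each window runs from 250 bases before to 50 after the start in RefSeq (GRCm38.p6), 5′ to 3′ on the gene's strand. Capitals mark CAGAC, a core letter string of Smad elements, or TGTNNATT, a string of the Foxh1 type (N is any base), read on both strands. Matches of the 2 strings can share bases, but no printed window held both, and a match is a run of letters and not a shown binding site. The windows lie at chr4:141300971-141301270 on the + strand (Epha2), chr9:102354644-102354943 on the - strand (Ephb1), chrX:99135811-99136110 on the + strand (Efnb1), chr5:14025026-14025325 on the + strand (Sema3e) and chr1:77515039-77515338 on the - strand (Epha4).
Epha2: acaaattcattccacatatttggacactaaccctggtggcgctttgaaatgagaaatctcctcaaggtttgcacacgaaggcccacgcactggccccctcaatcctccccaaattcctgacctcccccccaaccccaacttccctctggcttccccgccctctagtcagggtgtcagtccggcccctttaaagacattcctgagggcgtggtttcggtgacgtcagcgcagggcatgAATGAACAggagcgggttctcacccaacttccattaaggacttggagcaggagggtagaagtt
Ephb1: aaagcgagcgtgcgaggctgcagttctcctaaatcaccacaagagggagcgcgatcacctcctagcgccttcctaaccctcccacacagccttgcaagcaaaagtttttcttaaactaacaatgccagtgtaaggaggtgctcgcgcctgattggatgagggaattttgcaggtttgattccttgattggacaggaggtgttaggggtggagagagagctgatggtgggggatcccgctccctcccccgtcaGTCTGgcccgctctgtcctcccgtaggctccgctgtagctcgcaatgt
Efnb1: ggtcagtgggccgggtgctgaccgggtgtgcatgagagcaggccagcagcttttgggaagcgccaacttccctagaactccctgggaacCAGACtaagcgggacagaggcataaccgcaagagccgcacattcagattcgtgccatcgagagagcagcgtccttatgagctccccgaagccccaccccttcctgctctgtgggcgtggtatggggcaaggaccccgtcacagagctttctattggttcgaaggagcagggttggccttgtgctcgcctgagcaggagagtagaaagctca
Sema3e: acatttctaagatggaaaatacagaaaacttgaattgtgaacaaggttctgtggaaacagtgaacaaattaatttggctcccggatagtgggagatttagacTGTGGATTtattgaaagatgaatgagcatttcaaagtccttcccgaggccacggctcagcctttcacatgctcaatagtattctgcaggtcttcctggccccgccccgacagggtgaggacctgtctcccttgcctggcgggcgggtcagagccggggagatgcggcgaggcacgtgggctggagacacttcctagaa
Epha4: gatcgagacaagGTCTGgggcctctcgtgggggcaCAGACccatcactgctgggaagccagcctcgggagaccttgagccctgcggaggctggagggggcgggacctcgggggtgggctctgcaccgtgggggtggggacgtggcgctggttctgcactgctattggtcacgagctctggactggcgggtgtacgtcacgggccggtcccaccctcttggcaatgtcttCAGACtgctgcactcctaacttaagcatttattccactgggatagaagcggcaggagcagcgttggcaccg

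The Epha2 and Sema3e windows each held 1 match to TGTNNATT and 0 to CAGAC, the Ephb1 and Efnb1 windows each held 1 match to CAGAC, and the Epha4 window held 3. Of the 40 genes with an entry, 23 held CAGAC (57.5%), beside 53.2% of all genes in the table, and 3 held TGTNNATT (7.5%), beside 13.9%. Of the 13 called genes with an entry, 6 held CAGAC (46.2%) and 2 TGTNNATT (15.4%). Of the 22 tested and uncalled genes, 14 held CAGAC (63.6%) and 1 TGTNNATT (4.5%). These shares were not tested, and nothing is read from them. Ntn1, Dcc, Slit1, Plxna1, Plxna4, Sema3f, Sema6a and Efnb3 had no entry.

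Of the 8 ephrin genes 3 fell and 0 rose, beside 7.38% and 5.19% of all features, and no direction of the family is read from this. Efnb1 (NM_010110), a transmembrane ligand of EphB receptors, had scaled signals of 36.5, 36.7 and 34.3 in SB431542 and 160.5, 169 and 148 in DMSO. The groups were far apart, and the log2 change was -2.15 ± 0.07, with DMSO 4.44-fold higher. Under normexp it was -1.87, with the call kept. Efnb2 (NM_010111), which binds EphB receptors and Epha4, had 122, 125 and 119 in SB431542 and 219, 199 and 209.9 in DMSO. Its log2 change was -0.78 ± 0.06, without overlap, and a second Efnb2 probe gave -0.67. The third ephrin-B gene, Efnb3, was not called at 0.21 ± 0.07. The calls of Efnb1 and Efnb2, like that of Epha2, were kept in the 14 other fits.

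Efna1, a lipid-anchored ligand of Epha2, had scaled signals of 26.7, 29.1 and 30.1 in SB431542 and 35.5, 37.7 and 35.3 in DMSO, and fell by 0.34 on the log2 scale (-0.34 ± 0.07). Its call was lost without each array but SB431542 replicate 3 (limma adjusted p = 0.0611 to 0.109) and under normexp, where the change was -0.21. The other 4 ephrin-A genes, Efna2, Efna3, Efna4 and Efna5, had log2 changes between -0.21 and 0.29. Efna3 was at 0.02 ± 0.06 by its brightest probe and at -0.61 by another that was well above background on all arrays, so its probes differ.

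**Figure D4:**
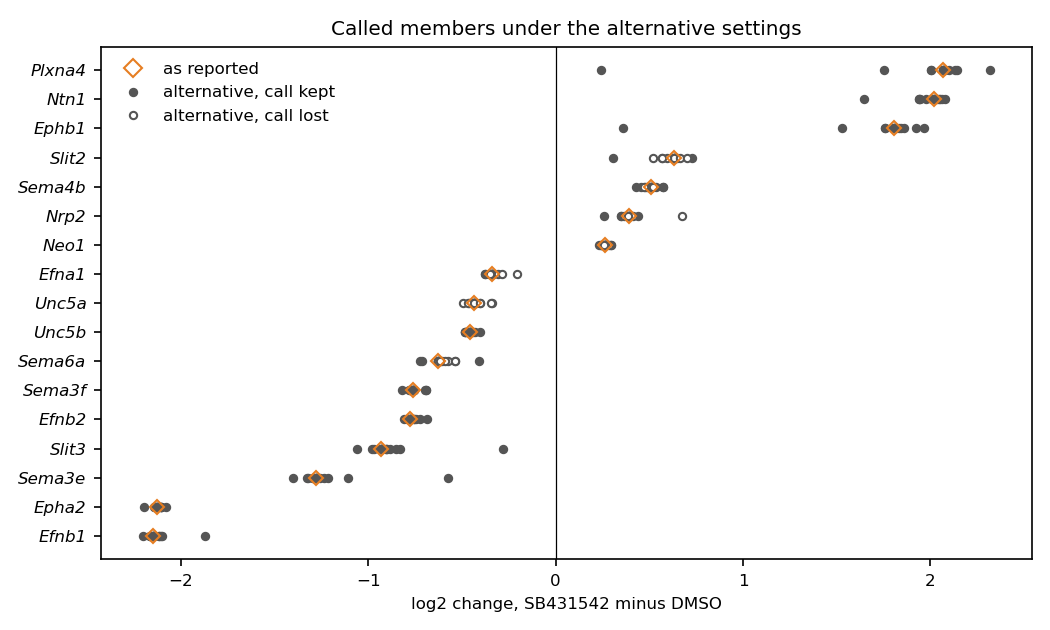
Log2 change (SB431542 minus DMSO, horizontal axis) of the 17 called genes as reported (orange diamonds) and under each alternative (grey points, open where the call was lost). No gene changed direction. The far points of Plxna4, Ephb1, Slit2, Slit3 and Sema3e toward 0 come from normexp with its offset of 50.

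For 9 of the genes 2 probes passed the filter on dim probes (3 or more arrays with signal well above background), and 7 second probes had the sign of the brightest probe. The exceptions were Epha7 (-0.25 and 0.17) and Efna3. For 6 of the 9 the 2 changes lay within 0.3 of each other on the log2 scale. Of the 5 genes not tested, Ntn4, Unc5c, Robo2 and Nrp1 had no probe well above background on any array, and Sema3a had 1 on a single SB431542 array.

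A further 29 guidance genes were read beside the list, also chosen with results known. Most are of the same families, and Dscam, Dscaml1, Draxin, Rgma and Rgmb are not. Of the 29, 20 were tested, and 2 rose and 3 fell, which is 25% called, beside 12.6% of all features (median log2 change -0.07, beside 0.02). Robo4, a Robo family receptor best known from endothelium, had scaled signals of 165, 155 and 163 in SB431542 and 290.2, 266 and 267 in DMSO, and its log2 change was -0.77 ± 0.06 (limma adjusted p = 0.00147). It kept its call whichever array was left out. Dscaml1 (-0.74 ± 0.14) and Dscam (-0.73 ± 0.14), cell adhesion molecules of one family, also fell, and Dscam has been described as a netrin receptor. Both are dim. Dscaml1 had 2.29 to 3.36 in SB431542 and 4.64 to 4.96 in DMSO. Dscam had 2.62 to 3.54 in SB431542, well above background on 2 of 3 arrays, and 4.52 to 5.81 in DMSO. Ntn3, another netrin, rose by 0.45 ± 0.10, and Plxnc1 by 0.42 ± 0.09. These 4 lost their calls without DMSO replicates 1 or 2 or SB431542 replicate 2 and, except Dscam, without DMSO replicate 3 (limma adjusted p = 0.0615 to 0.121). Ntn3 and Plxnc1 lost them without SB431542 replicate 1 too. Under normexp Dscam, Dscaml1 and Plxnc1 lost their calls. All 9 further semaphorin genes tested were uncalled.

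Of 71 genes taken as effectors of these receptors, most of them acting inside the cell, all were tested, 3 rose and 5 fell (median -0.01). That is 11.3% called, close to the 12.6% of all features. The 2 largest changes were in collapsin response mediators, which relay semaphorin signals to the cytoskeleton. Dpysl4 had scaled signals of 67.0, 68.2 and 61.3 in SB431542 and 163, 173 and 154 in DMSO, a log2 change of -1.32 ± 0.07 (limma adjusted p = 0.000515). Dpysl3 had 506, 566 and 488 in SB431542 and 1110.2, 1125 and 1061.5 in DMSO, a log2 change of -1.08 ± 0.07 (limma adjusted p = 0.000907). The 3 other genes of that family were not called and lay above 0, Crmp1 at 0.16 ± 0.06, Dpysl5 at 0.24 ± 0.12 and Dpysl2 at 0.07 ± 0.06. Dpysl4 and Dpysl3 kept their calls whichever array was left out, as did Nfatc4 (-0.64 ± 0.09), a calcium-responsive transcription factor. Src fell by 0.52 on the log2 scale and lost its call without each array but DMSO replicate 1 (limma adjusted p = 0.0541 to 0.0978). Without single arrays 0 or 1 effector gene rose and 3 to 6 fell.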

How the data were processed

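Total RNA of 6 samples (3 SB431542, 3 DMSO, grouped by title) was measured on 1-colour Cy3 arrays. Agilent Feature Extraction 10.7, per the submitters' processing notes, gave linear intensity values that, per the file headers, had background subtracted and a spatial trend removed. Flags for spots well above background, outliers and saturation are deposited as a score of 0 or 1. The authors also deposited a table of log2 values, with normalization not given in the sources used here. Its column medians ran from 5.18 to 5.19, and it served as an alternative. Between 63.9% and 66.2% of non-control spots were well above background, 0 were saturated, and the 75th percentile signal was 452 to 564. Precision is limited by the 3 arrays in a group.

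Outlier spots were left out, spots of a probe averaged, and the log2 of the processed signal taken, and the array's own 75th percentile (controls left out) subtracted. Probes were named by RefSeq accession (27200 of 55600) or by a symbol in the file (13). Those well above background on at least 3 of 6 arrays were kept, with the brightest probe for each gene. limma 3.58.1 (R 4.3.3, with Python 3.11.15 for reading) was fitted without trend, two-sided, over all 25899 features. The limma fit and the p-value adjustment were run on simulated data with known changes, and the steps before them were not. The files hold a median spot signal and no mean, so normexp used the median. The array grid is of mm9, so gene coordinates were not used. Members and lists were chosen with earlier results of these data known. All 48 genes are named. Full values are given for genes called with at least 1.5-fold change or measured in 1 group only. Of the other lists, up to 4 called genes with the largest change are named, plus Plxnc1, which was named after its values were seen. For these the signal of every array is given only for Robo4, Dpysl4 and Dpysl3. The main fit did not pair samples by replicate number, since the labels do not say whether the numbers mark pairs. Alternatives were the background method, normalization, dim-probe filter, probe choice, limma trend, slide, replicate block, threshold and leaving out each array.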

Additional observations from a re-analysis of the deposited data

How the results depend on the processing

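All 17 called genes kept their direction under every alternative run, and 10 kept their call in every other fit at the 0.05 threshold. With the 0.01 threshold counted too it was 9, since Slit3 has a limma adjusted p of 0.0106. Neo1, Unc5a, Slit2 and Efna1 lost it with no filter on dim probes and with the replicate block, Sema6a with no filter, and Nrp2 with the replicate block. There were 14 distinct other fits for each gene, slide as a block being the fit without SB431542 replicate 3, and 13 for Plxna4 and Ephb1, which the filter for all 6 arrays removes. Plxna4 and Ephb1 are among the 10, though they passed the main filter only through the SB431542 arrays. The 43 genes' median ran from -0.05 to 0.03, above 0 only with no filter on dim probes, which adds 5 genes. The adjusted p threshold of 0.01 left 3 genes that rose and 6 that fell, with 431 and 791 features, 0 and 1 other guidance genes and 0 and 3 effectors. With no filter on dim probes, 792 features rose, and 0 other guidance genes rose and 1 fell, and 1 effector rose. Under normexp 1 other guidance gene rose and 1 fell. With limma trend 6 effectors rose, and with slide as a block 1. With the replicate number as a block, 545 features rose and 1022 fell, 4 of the 48 genes rose, 0 other guidance genes rose, and 0 effectors rose and 3 fell. The labels do not say whether equal numbers mark paired samples. Same-numbered arrays had correlations of their deviations of 0.00172, 0.0716 and -0.0578. SB431542 replicate 2 correlated best with its own number, and replicates 1 and 3 did not. With 3 arrays per group and 1 of them on its own slide, these correlations cannot decide whether samples were paired. Leaving out single arrays, which leaves fewer samples, gave 542 to 1235 features that rose and 925 to 1675 that fell, 3 to 7 and 7 to 9 of the 48 genes, 0 to 2 and 1 to 4 other guidance genes, and 0 to 1 and 3 to 6 effectors. The cause of the other shifts was not tested. Plxna4 and Ephb1 had no DMSO array well above background, and Slit2, Slit3 and Sema3e are dim. The changes of these genes were smaller under normexp with its offset of 50, so the sizes given depend on the background method. Those of Ntn1 (1.64) and Efnb1 (-1.87) were also smaller there than in the main fit.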

Other observations

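Single-array signals were seen in genes that were not tested. Sema3a, a secreted repellent that acts through neuropilin-1, had 1 probe well above background on SB431542 replicate 1 only, with scaled signals of 2.71, 0.759 and 1.02 in SB431542 and 0.567, 0.501 and 0.843 in DMSO. One Unc5c probe reached 1.36 on the same array, against 0.875 and 0.469 on the other SB431542 arrays and 0.431, 0.414 and 0.406 in DMSO, and was not well above background on any. Epha1 was also highest on that array (69.3). These values were picked after they were seen and have no test.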
